A study of Mus musculus with 4 samples.

Results

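The neutrophil-attracting chemokine axis was followed here as 6 genes of the 32285 listed in the matrices, chosen by symbol. They were the chemokines Cxcl1, Cxcl2 and Cxcl3, their receptor gene Cxcr2, the chemokine Cxcl12 and its receptor gene Cxcr4. All 6 were found in each library. Their transcripts, counted as UMIs (1 per captured RNA molecule), were read in 26853 single CD45+ leukocytes of the spinal cord. The 2 Reg1-MO libraries came from C57BL/6 mice in which experimental autoimmune encephalomyelitis (EAE), an autoimmune inflammation of the central nervous system, had been induced and which received Reg1-MOs into the cranium 9 days after immunisation. The 2 control libraries came from EAE mice of the same strain given Ctrl MO by that route on that day, and all cells were collected on day 16. The labels spell out neither Reg1 nor MO (read here as Regnase-1, the product of Zc3h12a, and morpholino), name no target site, give no healthy group, and do not say whether a library is 1 animal or a pool. P-values therefore measure only the spread between these libraries.

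CXCL1, CXCL2 and CXCL3 are small secreted proteins that bind CXCR2, a receptor carried mainly by neutrophils, and draw those cells out of blood into inflamed tissue. CXCL12 is made largely by stromal and endothelial cells and binds CXCR4, which holds neutrophils and their precursors in the bone marrow. As neutrophils age they lose CXCR2 and gain CXCR4. In EAE, neutrophils enter the spinal cord early, and stromal cells and astrocytes, which a CD45+ sort does not collect, are also known to make CXCL1 and CXCL12.

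The 3 ligand genes lie on the plus strand of chromosome 5 of GRCm38. Cxcl3 spans 90786103 to 90789600, Cxcl1 spans 90891241 to 90893115 and Cxcl2 spans 90903871 to 90905938. A gap of 101.64 kb separates Cxcl3 from Cxcl1, and 10.755 kb separates Cxcl1 from Cxcl2. Cxcr2 (74153989 to 74161246, plus strand) and Cxcr4 (128588199 to 128592293, minus strand) are on chromosome 1, and Cxcl12 (117168535 to 117181367, plus strand) is on chromosome 6. The 100 bases before the annotated start of each CXCR2 ligand gene are shown because these 3 genes share a stretch there. They come from RefSeq promoters of GRCm38.p6 and are written 5′ to 3′ on the plus strand. Capitals mark the longest run present in all 3 (11 letters), which has the form of a κB site, the kind of element bound by NF-κB factors.
Cxcl1, chr5:90891141-90891240: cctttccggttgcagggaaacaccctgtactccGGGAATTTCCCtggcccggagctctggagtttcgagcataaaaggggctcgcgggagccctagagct
Cxcl2, chr5:90903771-90903870: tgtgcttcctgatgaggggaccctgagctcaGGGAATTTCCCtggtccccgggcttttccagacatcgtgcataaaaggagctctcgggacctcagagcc
Cxcl3, chr5:90786003-90786102: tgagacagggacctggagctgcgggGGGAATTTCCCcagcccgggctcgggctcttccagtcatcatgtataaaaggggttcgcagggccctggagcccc
The run begins 67 bases before the start of Cxcl1, 69 before that of Cxcl2 and 75 before that of Cxcl3. Searched on both strands, GGGAATTTCCC was in 14 of 32851 RefSeq promoter windows (0.0426%). All 6 members matched a window, of which only the part before the annotated start (222 to 256 bases) was searched for them. Cxcr2, Cxcl12 and Cxcr4 do not hold these letters there. ATAAAA, part of a TATA-type element, was in that part for the 3 ligand genes and for Cxcr4. It was in 18.5% of all windows. Shares over all windows count whole windows, so members and shares were not read over the same stretch. The run was picked after the sequences were seen, so these shares are a description.

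The same 3 genes were looked at for ATTTA, the core of AU-rich elements, through which RNA-binding decay factors shorten the life of inflammatory transcripts. On the transcript strand, the principal GENCODE 3′ UTR of Cxcl1 held 7 copies in 592 bases, that of Cxcl2 held 11 in 734 and that of Cxcl3 held 5 in 645. The densest window of 30 bases had 4 copies in Cxcl1, 5 in Cxcl2 and 2 in Cxcl3, counts reached by 0.537%, 0.234% and 17.6% of 20501 UTRs. These windows are shown with ATTTA in capitals.
Cxcl1, chr5:90892611-90892640: ATTTATTTAtgtATTTATTTAttccacaaa
Cxcl2, chr5:90905328-90905357: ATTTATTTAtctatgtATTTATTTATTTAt
Cxcl3, chr5:90787643-90787672: ATTTAatgtttATTTAatatcaagtctaag
The 3′ UTRs of Cxcr2 (1818 bases), Cxcl12 (2768 bases) and Cxcr4 (644 bases) held 2, 3 and 1 copies.

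The libraries held 8080 and 4953 used cells in Reg1-MO and 7547 and 6273 in control (replicates 1 and 2 in that order, here and throughout). Median UMIs per used cell were 9458 to 11548. Cells were clustered and named "-like" from marker genes, and every one of the 10 neutrophil markers was present in the neutrophil-like cells of each library. Their summed level was 329764 and 366810 CPM (UMIs of a gene per 1000000 UMIs of the same cells) in Reg1-MO, against 336083 and 323546 in control. In the 4 libraries 175 barcodes occurred in more than 1 library, covering 331 used cells; leaving these cells out gave no call for a member.

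The neutrophil-like share of cells was lower in both Reg1-MO libraries. It was 4.98% and 19.0% in Reg1-MO, against 24.0% and 36.1% in control, a mean of 12.0 ± 9.94% against 30.04 ± 8.54% (SD, n = 2 each). The two-sided exact permutation p was 0.33, the smallest that 2 against 2 libraries allow. Of all UMIs, neutrophil-like cells held 1.73% and 10.5% in Reg1-MO and 12.1% and 22.1% in control, and microglia-like cells held 42.5% and 35.8% in Reg1-MO and 26.1% and 9.42% in control. These shares are relative: the numbers of cells per spinal cord were not analysed here, and a lower share of 1 class cannot be told apart from a higher number of others.

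**Figure D1:**
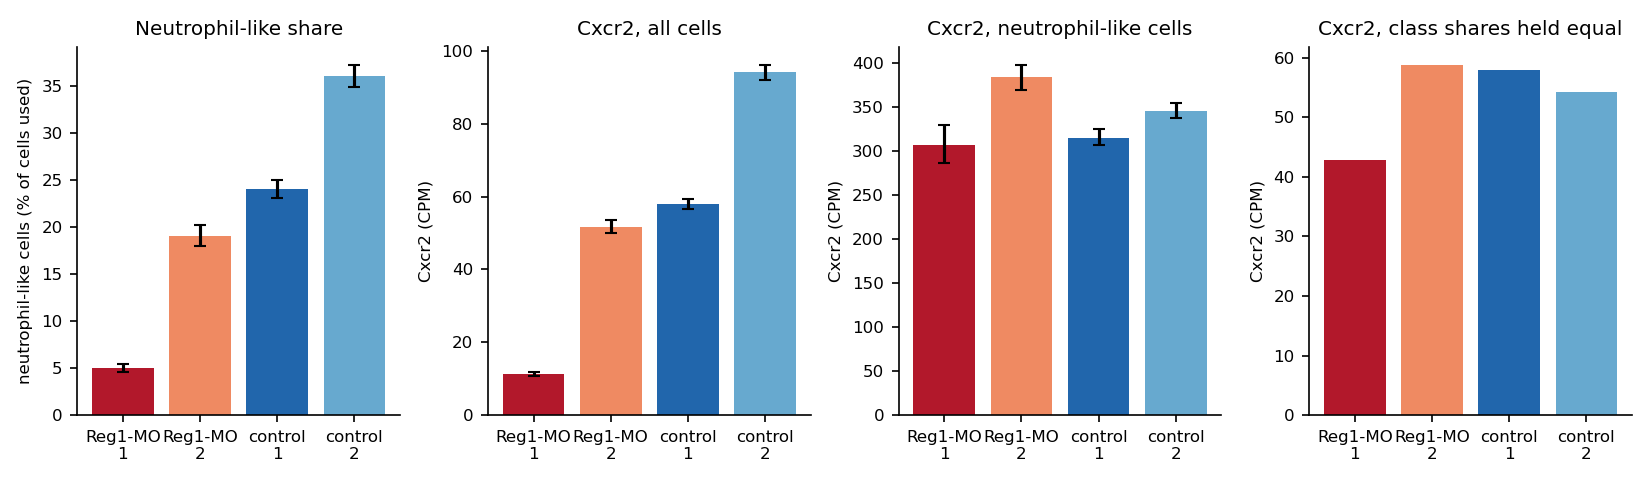
Bars give each library, Reg1-MO left of control: the neutrophil-like share of cells (Wilson 95% binomial interval), Cxcr2 CPM in all cells summed and in neutrophil-like cells (exact 95% Poisson intervals, counting error only), and Cxcr2 CPM with every library given the same class shares of UMIs (no interval). The share runs from 4.98% to 36.1% and Cxcr2 in all cells follows it, while Cxcr2 inside neutrophil-like cells lies between 307 and 384 CPM.

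Cxcr2, the receptor of the 3 ligands, was a transcript of neutrophil-like cells in every library. Of its 20426 UMIs, 14803 lay in these cells, which held 46.6% and 78.3% in Reg1-MO and 65.9% and 81.3% in control. In Reg1-MO 1 a further 31.0% lay in microglia-like cells. The level of Cxcr2 in neutrophil-like cells was 307 and 384 CPM in Reg1-MO and 316 and 346 CPM in control. Close to it was the unnamed cluster 6, described below, at 327 and 232 CPM in Reg1-MO and 293 and 379 CPM in control, within the range of neutrophil-like libraries or close to it. Here and below, classes are put in order only if they are named and held at least 50 cells in every library; smaller classes and the other unnamed clusters are left out of the order. Next in it, microglia-like cells had 8.31 and 14.8 CPM in Reg1-MO and 39.0 and 10.8 CPM in control. Granulocyte-monocyte progenitor-like, conventional dendritic cell-like and macrophage-like cells followed at means of 7.16, 3.86 and 3.77 CPM over the 4 libraries, with overlapping ranges. T-like cells averaged 1.54 CPM.

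In all cells summed, Cxcr2 was lower in both Reg1-MO libraries. Its normalised level was 11.4 and 48.8 CPM in Reg1-MO, against 59.2 and 97.5 CPM in control, a log2 fold change of -1.38 ± 0.71 (SE), and it did not pass the test (adjusted p = 0.387, edgeR quasi-likelihood). The order of the 4 libraries is the order of their neutrophil-like shares. With every library given the same class shares of UMIs, Cxcr2 was 42.8 and 58.9 CPM in Reg1-MO and 57.9 and 54.3 CPM in control, and the log2 ratio of group means was -0.14, against -1.27 with each library's own shares.

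Per neutrophil-like cell, no difference in Cxcr2 was detected. The normalised level was 299 and 420 CPM in Reg1-MO and 314 and 329 CPM in control (log2 fold change 0.17 ± 0.18, adjusted p = 0.751), and the groups overlapped. The direction of so small a value depended on the cells taken: it was -0.07 with doublets kept, -0.03 with finer clusters and -0.12 without Reg1-MO 2. After thinning each cell to 1000 UMIs, a Cxcr2 UMI was seen in 36.4% and 40.1% of neutrophil-like cells in Reg1-MO and in 37.4% and 38.0% in control. T-like cells, which should lack the receptor, gave 0.0397% and 0.171% in Reg1-MO and 0.243% and 0.0947% in control at that depth. Thinning left out 15 and 13 shallower neutrophil-like cells in Reg1-MO and 27 and 59 in control; without it, the Cxcr2 shares were 73.6% and 85.4% in Reg1-MO and 80.3% and 80.3% in control.

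Cxcr2 UMIs outside neutrophil-like cells were lower in Reg1-MO in macrophage-like, conventional dendritic cell-like and T-like cells, and in each of these classes neutrophil markers were lower too. Macrophage-like cells had a normalised 1.82 and 2.79 CPM of Cxcr2 in Reg1-MO, against 4.05 and 6.33 CPM in control (log2 fold change -1.20 ± 0.34, adjusted p = 0.191); the log2 fold change was -2.12 with doublets kept and -0.53 with finer clusters. The summed level of the 10 neutrophil markers in macrophage-like cells was 794 and 696 CPM in Reg1-MO, against 1485 and 2728 CPM in control, with none at 0. Conventional dendritic cell-like cells had 0.540 and 0.803 CPM of Cxcr2 in Reg1-MO, against 6.69 and 7.41 CPM in control (log2 fold change -3.39 ± 0.61, adjusted p = 0.180), from 3 and 2 UMIs in Reg1-MO and 13 and 8 in control. Their neutrophil markers summed to 107 and 412 CPM in Reg1-MO and 4586 and 13738 CPM in control, and 1 of the 10 was at 0 in Reg1-MO 1. T-like cells had 0.382 and 0.503 CPM of Cxcr2 in Reg1-MO, against 2.18 and 3.13 CPM in control (log2 fold change -2.58 ± 0.43, adjusted p = 0.332), beside neutrophil markers of 218 and 527 CPM in Reg1-MO and 616 and 1082 CPM in control, none at 0. The T-like UMIs numbered 8 and 5 in Reg1-MO and 39 and 26 in control. Without control 1 the log2 fold change was -1.50 in macrophage-like and -2.83 in T-like cells. Without the filter on low counts the adjusted p was 0.000163 in macrophage-like and 3.21e-05 in T-like cells. Those fits called 2201 of 21078 and 539 of 20547 genes.

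The ratio of Cxcr2 to the neutrophil transcript Retnlg was compared as a description of these UMIs. Per 100 Retnlg UMIs, neutrophil-like cells held 2.09 and 2.44 Cxcr2 UMIs in Reg1-MO and 1.86 and 2.13 in control. T-like cells held 3.36 and 2.39 in Reg1-MO and 3.86 and 4.59 in control, and macrophage-like cells 12.2 and 7.29 in Reg1-MO and 5.37 and 4.71 in control. The part that neutrophil RNA or mixed droplets have in the Cxcr2 of these classes was not tested.

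Microglia-like Cxcr2 rested on 1 library. It was a normalised 8.67 and 13.9 CPM in Reg1-MO and 40.7 and 10.5 CPM in control (log2 fold change -1.20 ± 0.68, adjusted p = 0.981), and without control 1 the log2 fold change was 0.07. In control 1, 234 of 581 microglia-like cells had a Cxcr2 UMI (40.3%), against 19 of 524 (3.63%) in control 2. The shares in Reg1-MO were 14.4% and 9.14%. After thinning they were 0.730% and 0.667% in Reg1-MO and 3.79% and 0.960% in control. Neutrophil markers in microglia-like cells summed to 1900 and 9865 CPM in Reg1-MO and 17531 and 3126 CPM in control, none at 0, with control 1 again the highest. Cluster 10, whose cells held a median of 58947 UMIs, made up 835 of 1236 and 197 of 1050 microglia-like cells in Reg1-MO and 371 of 581 and 17 of 524 in control, and cluster 11 most of the others.

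Cxcl2, a CXCR2 ligand made by activated myeloid cells, was by far the most abundant member, with 369733 UMIs in 13055 cells. Its level was highest in cluster 6, at 17536 and 18094 CPM in Reg1-MO and 14198 and 9779 CPM in control. Neutrophil-like cells followed with 2193 and 1747 CPM in Reg1-MO and 1713 and 1066 CPM in control. Macrophage-like cells had 1247 and 1431 CPM in Reg1-MO and 1079 and 772 CPM in control, a range that overlaps the neutrophil-like one. Microglia-like cells had 798 and 535 CPM in Reg1-MO and 1000 and 198 CPM in control, and the means of all other classes of at least 50 cells per library with a name were at most 140 CPM (regulatory T-like).

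Most Cxcl2 UMIs lay in macrophage-like and microglia-like cells together in 3 of the 4 libraries. Macrophage-like cells held 44.4% and 39.5% in Reg1-MO and 31.1% and 35.8% in control, and microglia-like cells 40.7% and 21.4% in Reg1-MO and 25.9% and 2.79% in control. Neutrophil-like cells held 4.54% and 20.5% in Reg1-MO and 20.6% and 35.4% in control. In all cells summed, Cxcl2 was a normalised 835 and 846 CPM in Reg1-MO and 1027 and 691 CPM in control (log2 fold change -0.03 ± 0.24, adjusted p = 0.956), and both Reg1-MO libraries lay between the 2 controls. The log2 fold change was 0.01 without Reg1-MO 1 and 0.28 without control 1. With class shares of UMIs held equal the values were 1003 and 956 CPM in Reg1-MO and 951 and 518 CPM in control, a log2 ratio of 0.42.

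**Figure D2:**
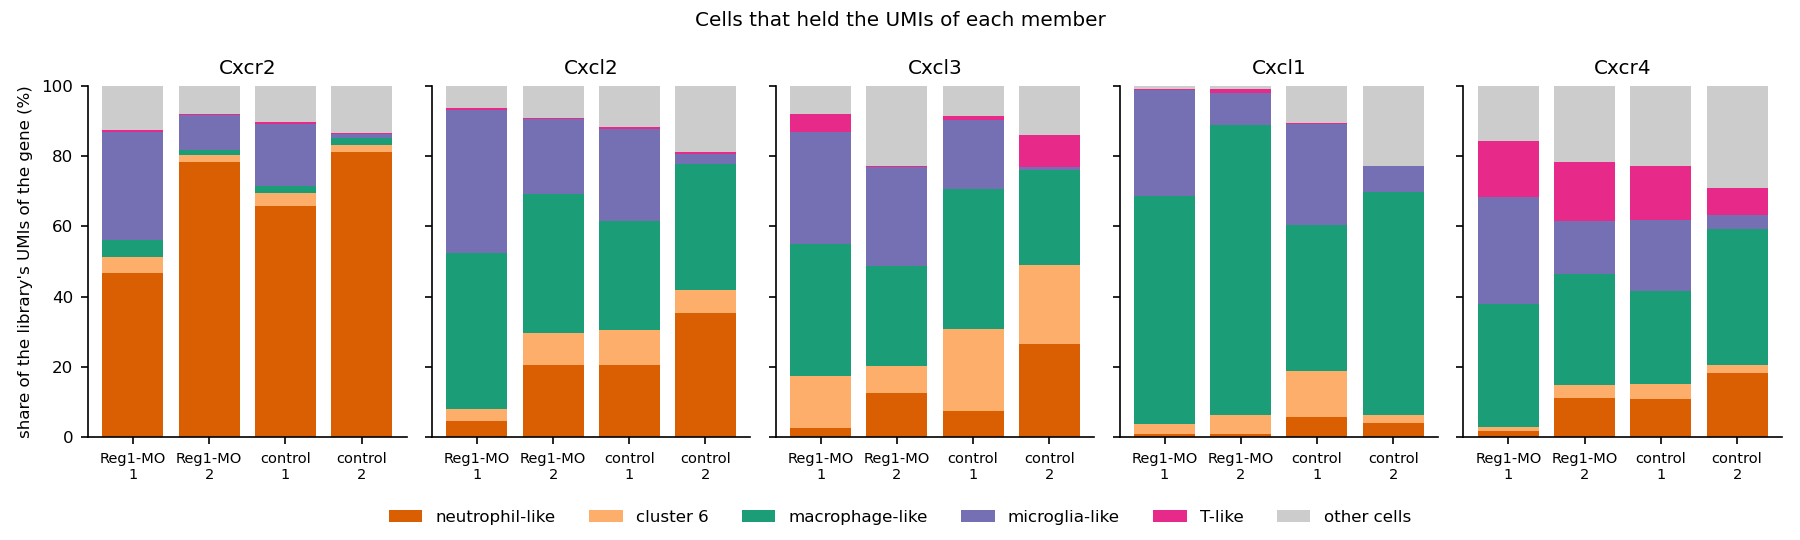
Stacked bars give, for each library (Reg1-MO left), the percent of the UMIs of each member held by each class of cells. Neutrophil-like cells held 46.6% and 78.3% of Cxcr2 UMIs in Reg1-MO and 65.9% and 81.3% in control, whereas macrophage-like and microglia-like cells together held 85.1% and 60.9% of Cxcl2 UMIs in Reg1-MO and 57.0% and 38.6% in control.

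Within classes, Cxcl2 was higher in both Reg1-MO libraries in neutrophil-like and macrophage-like cells without passing the test. In neutrophil-like cells it was a normalised 2134 and 1910 CPM in Reg1-MO, against 1703 and 1014 CPM in control (log2 fold change 0.57 ± 0.25, adjusted p = 0.383). A Cxcl2 UMI was seen in 59.2% and 52.7% of these cells in Reg1-MO and in 52.0% and 42.4% in control after thinning (76.4% and 72.4% in Reg1-MO and 71.8% and 62.2% in control before it). In macrophage-like cells it was 1282 and 1440 CPM in Reg1-MO, against 1060 and 761 CPM in control (log2 fold change 0.58 ± 0.20, adjusted p = 0.225). Without control 1 the macrophage-like value was 0.84. Without the filter on low counts it was 0.57 (adjusted p = 0.0135), in a fit that called 2201 of 21078 genes. The clusters inside this class differed between libraries: cluster 1 gave 554 and 305 cells in Reg1-MO and 193 and 7 in control, and cluster 3 gave 316 and 59 in Reg1-MO and 465 and 807 in control.

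Microglia-like Cxcl2 differed between clusters 10 and 11 of the class. It was a normalised 833 and 505 CPM in Reg1-MO and 1043 and 193 CPM in control (log2 fold change 0.11 ± 0.82, adjusted p = 0.999), and the log2 fold change was -0.30 without Reg1-MO 1 and -0.64 without control 2. In cluster 10 the level was 881 and 1071 CPM in Reg1-MO and 1071 and 1025 CPM in control. In cluster 11 it was 332 and 200 CPM in Reg1-MO and 579 and 111 CPM in control. The libraries with most of their microglia-like cells in cluster 10, Reg1-MO 1 and control 1, were the ones with the high class values. They also had the higher values inside cluster 11, and the part that cluster makeup has in the class values was not tested.

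In 2 smaller classes Cxcl2 came closest to the threshold. Granulocyte-monocyte progenitor-like cells, named for precursors of granulocytes and monocytes, had a normalised 226 and 96.3 CPM in Reg1-MO, against 59.2 and 46.2 CPM in control (log2 fold change 1.60 ± 0.36, adjusted p = 0.0801). These values rest on 60 and 77 cells in Reg1-MO and 253 and 211 in control. Regulatory T-like cells had 90.9 and 98.2 CPM in Reg1-MO, against 212 and 165 CPM in control (log2 fold change -1.0 ± 0.17, adjusted p = 0.0530). In that class 1 cell held 109 of the 231 UMIs of control 1, and 22.9% and 20.6% of cells in Reg1-MO and 28.9% and 19.1% in control had any. Without the filter on low counts the adjusted p was 4.28e-21 in progenitor-like and 1.41e-05 in regulatory T-like cells. Those fits called 1292 of 17974 and 402 of 16375 genes. With doublets kept, the progenitor-like fit called 0 of 11126 genes. The progenitor-like log2 fold change was 0.85 without Reg1-MO 1, 2.10 without Reg1-MO 2 and 1.79 without control 1. In regulatory T-like cells it was -0.81 without control 1 and -1.17 without control 2.

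Cxcl3, the remaining CXCR2 ligand, was scarce, with 5215 UMIs in 979 cells. Cluster 6 had 970 and 235 CPM in Reg1-MO and 519 and 403 CPM in control. Macrophage-like cells had 13.6 and 15.6 CPM in Reg1-MO and 21.8 and 6.99 CPM in control, and neutrophil-like cells 15.6 and 16.3 CPM in Reg1-MO and 9.89 and 9.66 CPM in control, so that these 2 classes did not differ beyond their spread. Microglia-like cells had 8.11 and 10.7 CPM in Reg1-MO and 11.9 and 0.753 CPM in control. CD8 T-like cells averaged 8.90 CPM, which rested on 1 cell with 54 UMIs in Reg1-MO 1 and 1 with 58 UMIs in control 2.

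In neutrophil-like cells the 2 highest Cxcl3 values were those of Reg1-MO. Its normalised level was 15.2 and 17.9 CPM in Reg1-MO, against 9.83 and 9.19 CPM in control (log2 fold change 0.82 ± 0.18, adjusted p = 0.116), from 41 and 120 UMIs in Reg1-MO and 147 and 181 in control. The share of these cells with a Cxcl3 UMI after thinning was 1.03% and 1.83% in Reg1-MO and 1.18% and 1.59% in control (4.23% and 5.62% in Reg1-MO and 3.37% and 3.89% in control before it), and the thinned shares overlap. Without Reg1-MO 1 the log2 fold change was 0.91. Without the filter on low counts it was 0.79 (adjusted p = 0.00851), in a fit that called 625 of 18368 genes. In macrophage-like cells the groups overlapped, at a normalised 13.9 and 15.7 CPM in Reg1-MO and 21.4 and 6.89 CPM in control (log2 fold change 0.05 ± 0.50, adjusted p = 0.962). Without control 1 that value was 1.10.

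Cxcl1, the ligand best known from stromal and epithelial sources, was the rarest of the CXCR2 ligands, with 1470 UMIs in 260 cells. Macrophage-like cells held 65.0% and 82.6% of its UMIs in Reg1-MO and 41.6% and 63.4% in control. Cluster 6 had 63.1 and 34.9 CPM in Reg1-MO and 56.4 and 18.3 CPM in control from 83 UMIs in all. Macrophage-like cells had a normalised 8.67 and 9.95 CPM in Reg1-MO, against 4.33 and 7.12 CPM in control (log2 fold change 0.70 ± 0.27, adjusted p = 0.239). Without control 2 the log2 fold change was 1.09. Only 2.02% and 2.41% of macrophage-like cells in Reg1-MO and 1.60% and 2.07% in control had a Cxcl1 UMI, and 1 cell held up to 52 of them. In all cells summed Cxcl1 was 3.86 and 2.80 CPM in Reg1-MO and 3.13 and 3.65 CPM in control (log2 fold change -0.02 ± 0.23, adjusted p = 0.974). No Cxcl1 UMI was seen in conventional dendritic cell-like or CD8 T-like cells, where 0 counts allow up to 2.79 CPM and 1.45 CPM in the shallowest library.

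**Figure D3:**
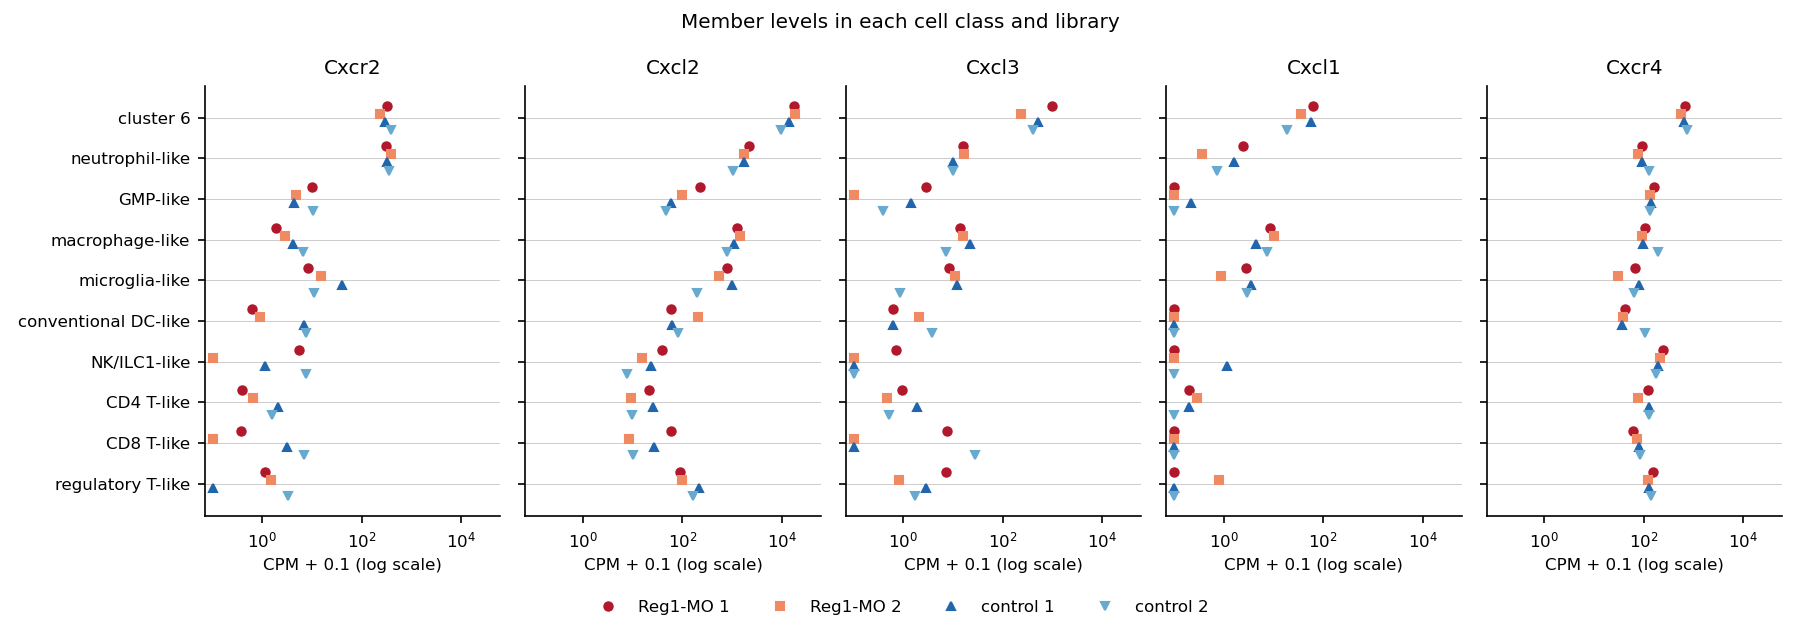
Each point is the level of 1 member in 1 class and library, as CPM + 0.1 on a log axis, with Reg1-MO libraries in red and control libraries in blue. Cxcr2 separates neutrophil-like cells and cluster 6 from the other classes, Cxcl2 is highest in cluster 6 and next in neutrophil-like and macrophage-like cells, and Cxcr4 is spread over all classes.

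Cxcl12 was nearly absent from these CD45+ cells, with 8 UMIs in 6 cells. The libraries gave 2 and 1 of them in Reg1-MO and 2 and 3 in control, all in macrophage-like (5) and microglia-like (3) cells. Neutrophil-like cells had 0 UMIs in each library, which allows up to 1.14 and 0.408 CPM in Reg1-MO and 0.202 and 0.160 CPM in control. Cxcl12 did not pass the filter on low counts in any class, and no difference was detectable at this depth.

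Cxcr4, the CXCL12 receptor, was found in every class, with 44642 UMIs in 14440 cells. Cluster 6 was highest, at 667 and 562 CPM in Reg1-MO and 647 and 735 CPM in control. NK/ILC1-like cells had 243 and 207 CPM in Reg1-MO and 189 and 179 CPM in control. Progenitor-like, regulatory T-like, macrophage-like and CD4 T-like cells had means from 113 to 140 CPM with overlapping ranges. Neutrophil-like cells had 90.8 and 75.4 CPM in Reg1-MO and 94.0 and 126 CPM in control, and CD8 T-like, microglia-like and conventional dendritic cell-like cells had means of 73.4, 60.4 and 55.8 CPM.

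In all cells summed Cxcr4 was lower in both Reg1-MO libraries. It was a normalised 91.6 and 66.6 CPM in Reg1-MO, against 108 and 157 CPM in control (log2 fold change -0.74 ± 0.25, adjusted p = 0.259). With class shares of UMIs held equal the log2 ratio was -0.35, against -0.66 with each library's own shares. In neutrophil-like cells it was 88.4 and 82.4 CPM in Reg1-MO, against 93.4 and 120 CPM in control (log2 fold change -0.33 ± 0.16, adjusted p = 0.433). The share of these cells with a Cxcr4 UMI after thinning was 7.24% and 8.39% in Reg1-MO and 11.4% and 13.6% in control (32.1% and 36.3% in Reg1-MO and 43.6% and 52.7% in control before thinning). In T-like cells, which use CXCR4 to follow CXCL12, it was 105 and 82.8 CPM in Reg1-MO, against 111 and 117 CPM in control (log2 fold change -0.27 ± 0.13, adjusted p = 0.511). Macrophage-like Cxcr4 overlapped between groups at 111 and 90.9 CPM in Reg1-MO and 94.6 and 186 CPM in control (log2 fold change -0.48 ± 0.33, adjusted p = 0.435). Without control 1 the log2 fold change was -0.88. Conventional dendritic cell-like Cxcr4 was 43.2 and 39.0 CPM in Reg1-MO and 37.1 and 105 CPM in control (log2 fold change -0.72 ± 0.43, adjusted p = 0.515). Without control 1 the log2 fold change was -1.33.

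Counted over the 10 classes and T cell subsets with at least 50 cells in every library, 0 of 36 member tests passed an adjusted p of 0.05 with edgeR, where 11 tests had an unadjusted p under 0.05 and DESeq2 gave 1 call. T-like cells include the CD4, CD8 and regulatory T-like cells, so their tests share UMIs and the 11 are not separate results. In all cells summed 0 of 5 passed. The percent of all genes called in the same fits was 0.104% in neutrophil-like, 2.24% in granulocyte-monocyte progenitor-like, 0.514% in NK/ILC1-like, 0.286% in regulatory T-like and 0.0893% in CD4 T-like cells and 0.0227% in cluster 6. It was 0% in macrophage-like, microglia-like, T-like, CD8 T-like and conventional dendritic cell-like cells and in all cells summed. Of those, macrophage-like cells had 2650 of 13031 genes at an unadjusted p under 0.05 and 678 calls with DESeq2. Microglia-like cells had 441 of 14039 and 26, T-like cells 1302 of 12404 and 69, and CD8 T-like cells 691 of 10513 and 20. Conventional dendritic cell-like cells had 1250 of 9601 and 73, and all cells summed 2891 of 16780 and 1029. Unadjusted counts were 1355 of 10608 genes in neutrophil-like, 2044 of 10908 in progenitor-like and 908 of 7775 in NK/ILC1-like cells. They were 1048 of 8752 in regulatory T-like and 1541 of 11196 in CD4 T-like cells. With so few genes called in any fit, the absence of calls among the members is no result about them.

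Groups that do not overlap are common among all genes, which sets the scale for the members. In neutrophil-like cells 2 of 5 members (Cxcl2 and Cxcl3) were above both controls in both Reg1-MO libraries and 1 (Cxcr4) below, against 20.8% and 23.1% of all genes. In macrophage-like cells 2 of 5 (Cxcl1 and Cxcl2) were above and 1 (Cxcr2) below, against 29.2% and 30.6%. In T-like cells 2 of 4 (Cxcr2 and Cxcr4) were below, against 23.4%, and in all cells summed 2 of 5 (the same receptors) were below, against 28.1%. Of 3 members tested in each, 1 (Cxcr2) was below in conventional dendritic cell-like cells, against 24.9%, and 1 (Cxcl2) was above in progenitor-like cells, against 25.1%. In regulatory T-like cells 1 of 2 (Cxcl2) was below, against 21.4%, and in cluster 6 1 of 5 (Cxcl2) was above, against 24.3%. In NK/ILC1-like cells 1 of 2 (Cxcr4) was above, against 21.3%. Among the T cell subsets, Cxcr2 and Cxcr4 were below in CD4 T-like cells (2 of 3, against 24.1%) and in CD8 T-like cells (2 of 4, against 20%).

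**Figure D4:**
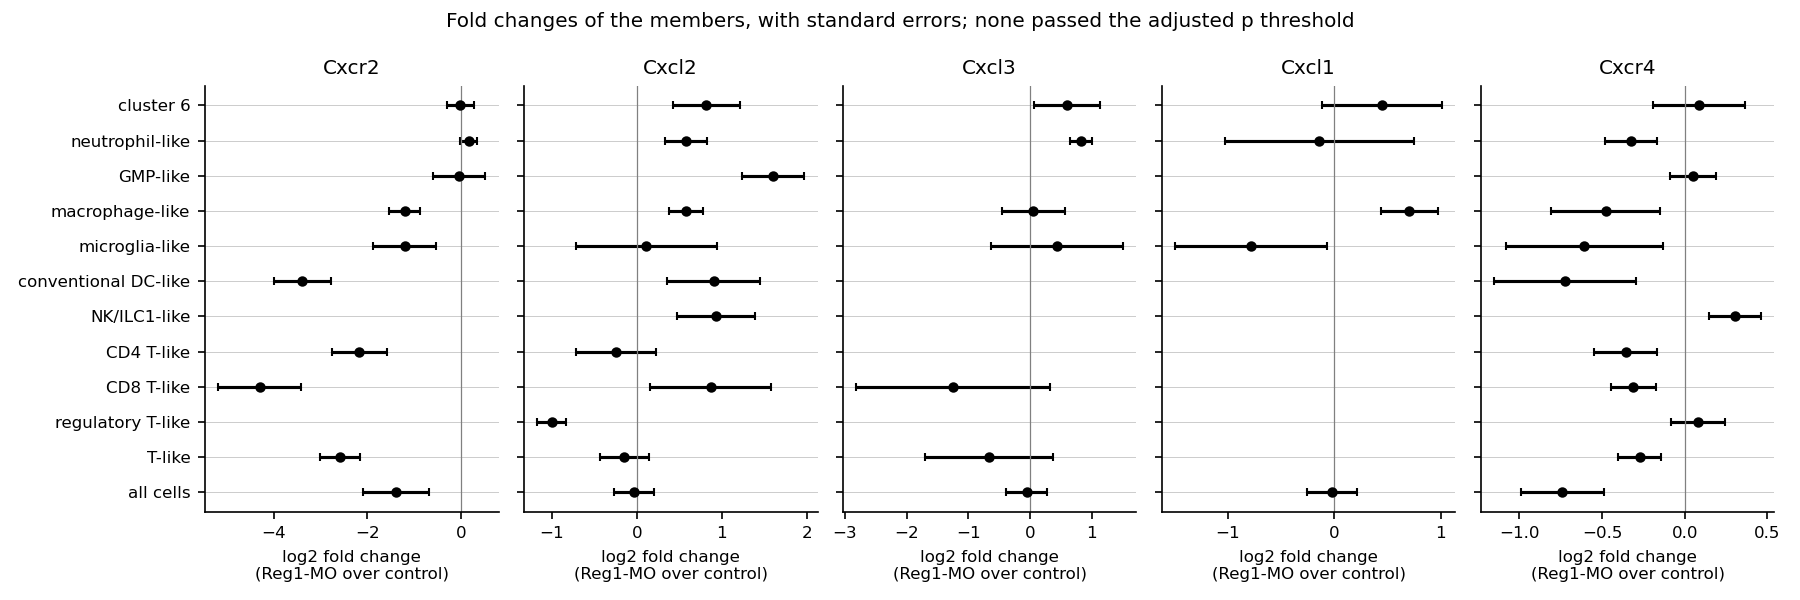
Points are log2 fold changes of Reg1-MO over control with their standard errors (n = 2 libraries each), for each class in which the member passed the filter on low counts; 0 means equal levels. Values of Cxcl2 lie above 0 in neutrophil-like and macrophage-like cells (0.57 and 0.58) and below 0 in regulatory T-like cells (-1.0), and none passed an adjusted p of 0.05.

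Whether a member's fold change differed between 2 classes was tested in 1 fit over both, with a term for each library. The Cxcr2 fold change in neutrophil-like minus that in macrophage-like cells was 1.35 ± 0.27 on the log2 scale (adjusted p = 0.0762), in a test that called 0.239% of all genes. It was 2.00 with doublets kept (adjusted p = 0.142), and 1.05 to 1.65 with 1 library left out. The neutrophil-like minus microglia-like difference for Cxcr2 was 1.08 ± 0.66 (adjusted p = 1.00), and the macrophage-like minus microglia-like one -0.21 ± 0.88 (adjusted p = 0.988). These last 2 tests called 0% of all genes, with 564 and 558 genes at an unadjusted p under 0.05, and DESeq2 was not run on them. The neutrophil-like minus microglia-like value was 2.04 without control 2 and 0.02 without control 1. The macrophage-like minus microglia-like value was -1.59 without control 1 and 1.05 without control 2. The Cxcl3 differences of -0.22, 0.59 and -0.85 (neutrophil-like minus microglia-like, neutrophil-like minus macrophage-like, macrophage-like minus microglia-like) did not pass. The first was -2.83 without control 1 and 1.14 without control 2. The second was -0.20 without control 1 and 1.30 without control 2. The last was -2.59 without control 1 and -0.10 without control 2. Microglia-like Cxcl3 was 0.753 CPM in control 2, against 11.9 CPM in control 1 and 8.11 and 10.7 CPM in Reg1-MO. For Cxcl2 the 3 differences were 0.06 ± 0.26 (neutrophil-like minus macrophage-like), 0.08 ± 0.64 (neutrophil-like minus microglia-like) and 0.05 ± 0.76 (macrophage-like minus microglia-like), and each of them changed sign when single libraries were left out.

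Among neutrophil-like cells, Cxcr2 and Cxcl2 spread further between clusters than between libraries of 1 cluster. The 4 neutrophil-like clusters run from cells led by Camp, Fcnb and Cebpe, genes of granule formation in young neutrophils (cluster 13), and by Ltf, Ngp and Ly6g (cluster 7), to cells led by Retnlg, Stfa2 and Mmp9 (cluster 8) and by Stfa2l1, Retnlg and Cxcr2 (cluster 5). The members were among the genes used for clustering, so the levels below are a description. Cxcr2 was 19.4 and 28.9 CPM in Reg1-MO and 36.2 and 36.3 CPM in control in cluster 13, and 835 and 934 CPM in Reg1-MO and 839 and 944 CPM in control in cluster 5. Cxcl2 was 83.7 and 28.2 CPM in Reg1-MO and 61.1 and 46.9 CPM in control in cluster 13, and 5268 and 4758 CPM in Reg1-MO and 5062 and 3681 CPM in control in cluster 5. Clusters 7 and 8 lay between these for both genes in every library. Cxcr4 was lowest in cluster 7, at 65.5 and 45.7 CPM in Reg1-MO and 62.3 and 73.2 CPM in control, and highest of the 4 in cluster 5, at 139 and 143 CPM in Reg1-MO and 184 and 258 CPM in control.

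The share of each neutrophil cluster overlapped between groups. Of neutrophil-like cells and cluster 6 together, cluster 5 made up 31.5% and 34.8% in Reg1-MO and 34.3% and 36.3% in control. Cluster 8 made up 23.7% and 27.3% in Reg1-MO and 22.1% and 25.3% in control. Cluster 7 made up 19.5% and 23.2% in Reg1-MO and 20.3% and 23.6% in control, and cluster 13 made up 9.66% and 6.21% in Reg1-MO and 10.8% and 9.49% in control. In cluster 8 Cxcl3 was a normalised 36.6 and 25.3 CPM in Reg1-MO, against 12.9 and 12.8 CPM in control (log2 fold change 1.17 ± 0.27, adjusted p = 0.0790). Cxcl2 there was 4385 and 2625 CPM in Reg1-MO, against 2508 and 1099 CPM in control (log2 fold change 0.96 ± 0.34, adjusted p = 0.231). The other neutrophil-like clusters had smaller values. In cluster 5 Cxcl3 was a normalised 38.9 and 51.5 CPM in Reg1-MO, against 35.0 and 30.7 CPM in control (log2 fold change 0.52 ± 0.24, adjusted p = 0.414), and Cxcl2 was 5557 and 4945 CPM in Reg1-MO and 4999 and 3513 CPM in control (log2 fold change 0.30 ± 0.18, adjusted p = 0.533), with overlap. In cluster 7 Cxcl2 was 689 and 548 CPM in Reg1-MO and 695 and 260.4 CPM in control (log2 fold change 0.37 ± 0.27, adjusted p = 0.632), also with overlap. Cxcr4 in cluster 5 was a normalised 147 and 148 CPM in Reg1-MO, against 182 and 246 CPM in control (log2 fold change -0.54 ± 0.19, adjusted p = 0.304). Its log2 fold change was -0.31 in cluster 7 and -0.37 in cluster 8 (adjusted p = 0.508 and 0.447). The fits called 16 of 7072 genes in cluster 5, 166 of 7819 in cluster 7 and 78 of 6958 in cluster 8. Cluster 13 had fewer than 50 cells in at least 1 library and was not tested.

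Cluster 6 scored highest for neutrophil markers but was left unnamed because its cells held a median of 3057 UMIs, under 1/3 of the median of their library, and no neutrophil marker was among its leading genes. Those genes were Cxcl3, Bcl2l15, Rab15 and Acod1, with Cxcl2 among the first 10, so its high ligand levels define it and are not a finding. It held 74 and 88 cells in Reg1-MO and 260 and 128 in control. Its 10 neutrophil markers were all present and summed to 23706 and 34988 CPM in Reg1-MO and 22953 and 32446 CPM in control, and it held 25.1 and 18.8 Cxcr2 UMIs per 100 Retnlg UMIs in Reg1-MO and 40.7 and 57.3 in control. Cxcl2 in it was a normalised 19583 and 21776 CPM in Reg1-MO, against 14373 and 9101 CPM in control (log2 fold change 0.82 ± 0.39, adjusted p = 0.369). Cxcr2 in it was 366 and 279 CPM in Reg1-MO and 297 and 353 CPM in control (log2 fold change -0.01 ± 0.29, adjusted p = 0.988).

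**Figure D5:**
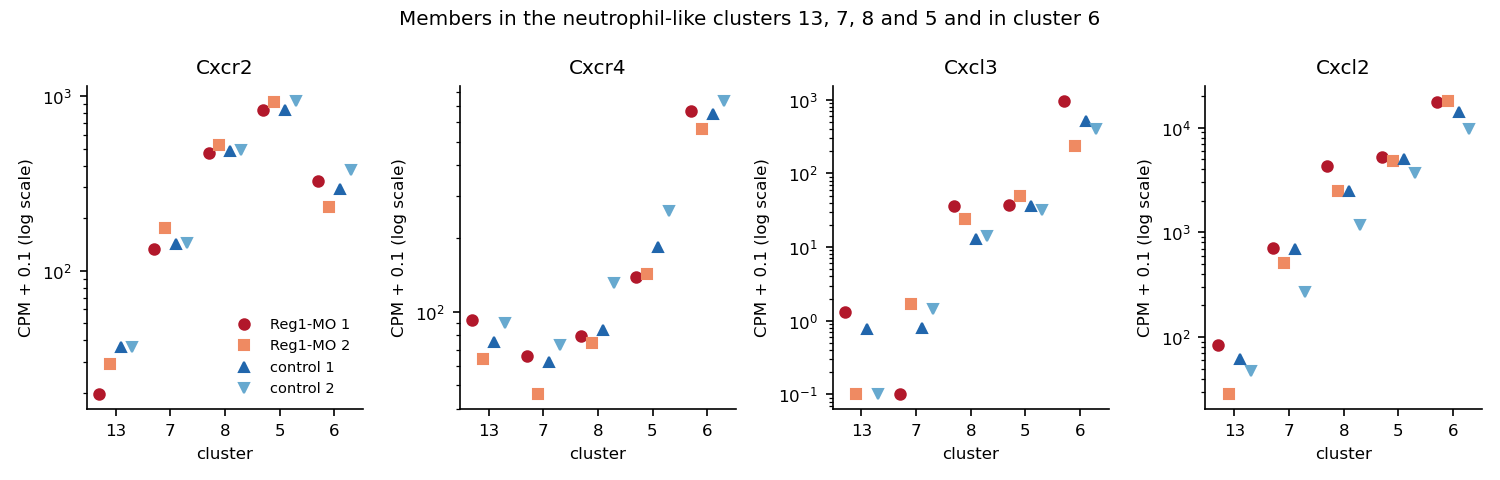
Points give Cxcr2, Cxcr4, Cxcl3 and Cxcl2 in the neutrophil-like clusters 13, 7, 8 and 5 and in the unnamed cluster 6, as CPM + 0.1 on a log axis, with Reg1-MO libraries left of control. In all 4 libraries Cxcr2 was lowest in cluster 13 and highest in cluster 5, and Cxcr4 and Cxcl2 were highest in cluster 6.

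Receptor and ligand transcripts were found in the same cells. After thinning to 1000 UMIs, neutrophil-like cells with a Cxcr2 UMI also had a Cxcl2 UMI in 71.6% and 67.3% of cases in Reg1-MO and 67.2% and 58.5% in control. Neutrophil-like cells without a Cxcr2 UMI had one in 52.0% and 42.9% in Reg1-MO and 42.9% and 32.6% in control. The share with Cxcl2 was thus higher among cells with Cxcr2 in each library. These shares pool the neutrophil-like clusters, between which both genes differed in level. Whether the 2 transcripts go together within a cluster was not tested. For Cxcr4 the shares were 7.09% and 10.7% in Reg1-MO and 13.9% and 17.8% in control among cells with Cxcr2, against 7.32% and 6.82% in Reg1-MO and 9.95% and 11.05% in control among cells without it.

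The genes whose levels were most like each member's were sought over 36 sums (9 classes in 4 libraries) among 9856 genes, as Pearson correlations of log2(CPM + 1). Sums of 1 library share its depth, and sums of 1 class share its cell type, so these are descriptions. Cxcr2 was most like Alox5, Hdc and Retnlg (0.95 each), genes of leukotriene synthesis, histamine synthesis and a neutrophil-secreted protein. Cxcl2 was most like Ets2, Acod1 and Clec4d (0.93, 0.93 and 0.91), which encode a transcription factor, the itaconate-making enzyme and a lectin receptor. Cxcl3 was most like Grina, Fpr2 and Clec4d (0.74, 0.71 and 0.70). For Cxcr4, Frat2 and Gpc1 had correlations of 0.75 and 0.72.

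Other genes of the axis were followed in 7 lists, and 0 list members were called with edgeR in neutrophil-like, macrophage-like, microglia-like or T-like cells or in all cells summed. Those fits called 0.104% of all genes in neutrophil-like cells and 0% in the rest, so this absence of calls is no result about the lists. Of 18 genes of CXCR2 and CXCR4 signalling and desensitisation, 12 were above 0 in neutrophil-like cells, with a median log2 fold change of 0.08 against -0.02 for all genes tested. In the same cells all 9 adhesion and recruitment genes were above 0 (median 0.18), 11 of 16 inducers and decay factors of CXCL1 to CXCL3 were (median 0.11), 3 of 8 other neutrophil chemoattractant receptors were (median -0.03), and 2 of 5 granulopoiesis genes were (median -0.09). Of other CXCR4 partners 2 of 3 were above 0 (median 1.33), and Cxcr1, the second receptor for such chemokines, was the only one of 6 further CXCR2 ligands and partners to be tested. Cxcr1 was a normalised 8.13 and 18.3 CPM in Reg1-MO and 8.03 and 6.75 CPM in control (log2 fold change 0.96 ± 0.31, adjusted p = 0.252). Il1b, an inducer of the ligands, was 1261 and 1590 CPM in Reg1-MO and 1113 and 846 CPM in control (adjusted p = 0.301), and Nfkbia, an NF-κB target and inhibitor, was 516 and 472 CPM in Reg1-MO and 357 and 328 CPM in control (adjusted p = 0.176).

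The other most abundant list genes in neutrophil-like cells, which were read by the same rule, had log2 fold changes nearer 0. They were 0.18 for both Rac2 and Gnai2, which carry chemokine receptor signals, -0.02 and -0.15 for the chemoattractant receptors C5ar1 and Ccr1, and 0.17 and 0.20 for the adhesion genes Itgam and Cd44. They were -0.09 and 0.43 for the granulopoiesis genes Cebpb and Csf3r, and -0.01 for Cd164, a sialomucin that associates with CXCR4 (adjusted p from 0.383 to 0.988 over these 9 genes).

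In macrophage-like cells the same 2 inducer genes had larger values. Il1b was 3408 and 4415 CPM in Reg1-MO, against 2099 and 1049 CPM in control (log2 fold change 1.31 ± 0.36, adjusted p = 0.191), and Nfkbia was 595 and 749 CPM in Reg1-MO, against 420 and 264 CPM in control (log2 fold change 0.97 ± 0.26, adjusted p = 0.191). Of 16 inducers and decay factors tested there 10 were above 0 (median 0.26), as were 12 of 18 signalling genes (median 0.10), 5 of 9 adhesion genes (median 0.35), 3 of 8 chemoattractant receptors (median -0.11) and 6 of 7 granulopoiesis genes (median 0.56), against a median of -0.01 for all genes. Cd74, a partner of CXCR4 in binding MIF, was 14064 and 13463 CPM in Reg1-MO and 8095 and 6105 CPM in control in macrophage-like cells (adjusted p = 0.189). It was 586 and 112 CPM in Reg1-MO and 61.4 and 57.5 CPM in control in neutrophil-like cells (adjusted p = 0.146), and the source of those UMIs was not tested. The other most abundant list genes of macrophage-like cells had log2 fold changes of 0.85 (Mif), 0.56 (Csf2rb), 0.45 (Cebpb), 0.44 (Ccr1), 0.35 (Itgb2), 0.24 (Gnai2), 0.08 (Lyn), -0.05 (Cd44), -0.16 (C3ar1) and -0.27 (Ackr3), with adjusted p from 0.216 to 0.884.

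In microglia-like cells 7 of 17 inducers and decay factors were above 0 (median -0.13), and in T-like cells 8 of 18 (median -0.02). The most abundant list genes of microglia-like cells had log2 fold changes from -0.93 (Cxcr1) to 0.61 (Il1b), each with an adjusted p of at least 0.981. Between these lay Mif (0.51), Selplg (0.50), Nfkbia (0.49), Itgam (0.40), Cd74 (0.35), C5ar1 (0.32), Gnai2 (0.31), C3ar1 (-0.10), Cebpb (-0.12), Lyn (-0.22), Ackr3 (-0.27) and Csf3r (-0.39). Those of T-like cells ran from -0.53 (Itga4) to 1.24 (Cd74), with Csf2 (0.64), Mif (0.35), Dock2 (0.13), Nfkbia (0.12), Rac2 (0.09), Selplg (0.03), S1pr4 (0.01), Nfkbiz (-0.02), Ltb4r1 (-0.07) and Cebpb (-0.16) between them and adjusted p from 0.420 to 0.985. Those of all cells summed ran from -0.56 (Cxcr1) to 0.86 (Cd74), with Il1b (0.78), Mif (0.63), Nfkbia (0.59), Selplg (0.38), Csf2rb (0.17), Ackr3 (0.12), Gnai2 (0.04), Lyn (-0.07), Cebpb (-0.11), C5ar1 (-0.20), Ccr1 (-0.29) and Cd44 (-0.37) between them and adjusted p from 0.272 to 0.914.

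Zc3h12a, which encodes Regnase-1, an RNase that cleaves inflammatory transcripts in their 3′ UTR, was not called. It was a normalised 54.0 and 59.4 CPM in Reg1-MO and 45.6 and 41.8 CPM in control in neutrophil-like cells (log2 fold change 0.38 ± 0.13, adjusted p = 0.283). In macrophage-like cells it was 48.8 and 49.5 CPM in Reg1-MO and 47.3 and 58.1 CPM in control (log2 fold change -0.10 ± 0.14, adjusted p = 0.693), and in microglia-like cells 60.9 and 73.2 CPM in Reg1-MO and 65.8 and 136 CPM in control (log2 fold change -0.59 ± 0.40, adjusted p = 0.981). Morpholinos can block translation or splicing and leave the transcript level as it is, so counts of the 3 prime end do not check the labels.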

How the data were processed

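CD45+ spinal cord cells of 4 libraries were sequenced with the 10x Genomics 3 prime kit. The deposited matrices hold raw UMI counts per gene and cell, which the authors produced in Cell Ranger, at version 5.0.1 per the file headers. Build mm10 and Seurat 4.0 are named in the submitters' processing notes, without a role for Seurat. How cells were called is not given in the sources used here. Libraries held 5256 to 9103 barcodes and 75472324 to 174552218 UMIs.

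Barcodes with at least 500 UMIs, 200 genes and no more than 10% of UMIs from mitochondrial genes were kept (Python 3.11.15, scanpy 1.11.5). The highest Scrublet scores were removed at 0.8% per 1000 barcodes, 217 to 635 cells per library, because the automatic threshold marked 421, 1, 251 and 0. The Leiden method (igraph 0.11.9, resolution 1, 3000 variable genes, 40 components) gave 29 clusters. Each was named after the marker list with the highest score (at least 0.5) where it led by 0.5. Otherwise it was named after the list within 0.5 of the highest that had the most markers, at least 2, among the 10 leading genes of the cluster. These thresholds were set after the clusters were seen. The 6 genes, gene lists and tests were chosen with earlier results of these data known. The rule for named genes took all 6 members, the 2 most abundant genes of each list without a call, the 3 genes most like each member averaging at least 10 CPM in a class, and Zc3h12a. Of the genes most like Cxcr4, 1 is not reported here.

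UMIs were summed per library and class. Genes passing filterByExpr (minimum count 10) were scaled by TMM factors, and edgeR 4.0.16 (R 4.3.3) compared the groups by its quasi-likelihood test, 2 libraries against 2, with Benjamini-Hochberg adjustment over all genes of the class. Adjusted p-values are from edgeR unless DESeq2 1.42.0 is named. CPM are UMIs per 1000000 of the class; normalised CPM use TMM library sizes. The scripts were tested on simulated data. Alternatives were DESeq2, its size factors, no filter, a replicate block, each library left out, doublets kept, members left out of clustering, resolution 2, shared barcodes left out, and cluster 6 added to the neutrophil-like class. Fixed class shares weight each class by its mean share of UMIs over the 4 libraries. UMIs of 1 sample are not independent replicates, and intervals cover counting error only.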

Additional observations from a re-analysis of the deposited data

How the results depend on the processing

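Of 250 alternative values for 24 single fold changes and differences, 203 kept direction and side of the threshold, 25 passed it and 20 changed sign, 13 of those with 1 library left out. Member calls over the 10 classes numbered 0 at first, 1 with DESeq2 and 12 of 50 tests without a low-count filter. The DESeq2 call was in regulatory T-like cells, where 52 of 8752 genes were called. Without the filter, calls over all genes ran from 23 of 22047 in microglia-like to 2201 of 21078 in macrophage-like cells. Member calls were 0 with DESeq2 size factors, doublets kept, members left out of clustering or finer clusters. They were 0 of 27 tests in the 7 classes fitted with shared barcodes left out, and 0 of 5 in neutrophil-like cells with cluster 6 added. In all cells summed the member calls were 0 under each alternative run. Genes called in neutrophil-like cells numbered 11, against 145 with DESeq2, 17 with its size factors, 0 with doublets kept, 17 with members left out of clustering, 2 with cluster 6 added, 625 without the filter, 17 without shared barcodes, and 115 to 462 with 1 library left out. From 0, macrophage-like calls became 678 with DESeq2, 2201 without the filter and 0 to 2905 with 1 library left out. From 0, microglia-like calls became 26 with DESeq2 and 23 without the filter, T-like calls 69, 539 and 0 to 538 with 1 library left out, and calls in all cells summed 1029, 215 and 0 to 37. The interaction tests gave 0 member calls. The cause of these changes was not tested.

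The sign changed for Cxcr2 in neutrophil-like cells (0.17; -0.071 with doublets kept, -0.030 at resolution 2, -0.12 to 0.39 with 1 library left out) and for Cxcl2 in microglia-like cells (0.11; -0.19, -0.20 and -0.64 to 1.78). Cxcr2 in microglia-like cells ran from -1.86 to 0.068 with 1 library left out. Cxcl2 in all cells was -0.03, and 0.13 without neutrophil-like cells, 0.42 with fixed class shares and -0.29 to 0.28 with 1 library left out. The Cxcl2 difference between neutrophil-like and macrophage-like cells was -0.070 with doublets kept and -0.090 to 0.21 with 1 library left out. That between neutrophil-like and microglia-like cells ran from -0.78 to 0.91 and that between macrophage-like and microglia-like cells from -0.95 to 1.05, the range of Cxcr2 there being -1.59 to 1.05.

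The titles number the libraries 1 and 2 in both groups without saying what a number shares. Deviations of same-numbered libraries correlated at 0.35 in all cells, 0.41 in microglia-like cells and -0.08 to 0.12 in the other classes and clusters, and with 2 pairs the numbers are not shown to pair samples. With the replicate block, 4 member tests passed (Cxcl2 in regulatory T-like and progenitor-like cells, Cxcl3 in neutrophil-like cells at 0.0494, Cxcr2 in CD8 T-like cells). Calls over all genes with the block were 383 of 8752 in regulatory T-like, 439 of 10908 in progenitor-like and 125 of 10513 in CD8 T-like cells. They were 342 of 10608 in neutrophil-like cells, 8 in T-like cells, 31 in all cells summed and 0 in macrophage-like cells.

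The share of neutrophil-like cells with a Cxcr2 UMI differed by 0.56 points at 1000 UMIs and 3.43 at 2000, and that with a Cxcr4 UMI by -4.71 points at 1000 UMIs and -14.0 without thinning. The neutrophil-like share differed by -16.5 to -20.1 points under 7 alternatives and -11.0 to -25.1 with 1 library left out. With 2 libraries per group, 1 library decides many calls.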
